A study of Homo sapiens with 12 samples.

Results

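Solute carriers are the membrane proteins, grouped into families under the symbols SLC and SLCO, that move nutrients, ions, metals, vitamins and metabolites across membranes without hydrolysing ATP themselves. Each family is named for its sequence relatives, so carriers of one substrate can sit in several families, and one family can serve several membranes. Carriers of the plasma membrane set what a cell takes up and releases, those of the mitochondrial inner membrane exchange metabolites and cofactors with the cytosol, and those of the endoplasmic reticulum, Golgi and lysosome supply sugar donors or recover the products of breakdown. The genes described here are those whose platform symbol begins SLC and whose probe had a detection score above 0.95 on all 3 arrays of at least 1 treatment group. Of 388 such symbols on the platform, 164 met the detection rule and 224 did not. 7 genes were left out by name (SLC7A11, SLC3A2, SLC7A5, SLC2A1, SLC2A3, SLC16A3 and SLC30A1), of which 6 were on the platform and detected, which left 158 genes out of the 8079 genes tested. The genes were thus selected on their measured detection scores, apart from the 7 left out by name. A gene detected in 1 group only was kept because it was high there. The choice was made with earlier results of these data known. Shares of calls below therefore describe these 158 genes and not all solute carriers. The last genes inside the rule were SLC60A1, SLC2A5 and SLC39A10, whose best group had lowest scores of 0.951, 0.955 and 0.955, and the first outside it were SLC25A13, SLC25A35 and SLC30A2, at 0.946, 0.946 and 0.942.

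RNA came from L-540, an established Hodgkin lymphoma cell line, in 4 groups of 3 samples, each lettered A, B and C. Cells were exposed for 24 hours to 100 nM givinostat, a histone deacetylase inhibitor, to 5 µM sorafenib, a multikinase inhibitor, or to both at these doses (the combination), and control cells are labelled with no drug dose, their vehicle not being stated. All 12 samples are of 1 cell line grown in culture, measured at 1 dose of each drug and 1 time. Whether the letters stand for separate cultures is not stated, so the p-values rest on sample-to-sample spread that may be purely technical.

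Median raw intensity was 418.1 to 579.3 on 11 arrays, with 24.6% to 30.9% of probes detected, whereas combination B stood apart with a median of 681.1 and 22.4% detected. Residual spread around the group means was also widest on combination B, with an SD of 0.329 log2 units, followed by combination A at 0.305, against 0.237 to 0.277 on the other 10 arrays. Each combination result is therefore also given without combination B where that changes it. Of 7 Hodgkin cell markers 6 were detected, as were 2 of 7 T cell markers, 4 of 7 myeloid markers, and 0 of the B cell, fibroblast and epithelial markers. TNFRSF8, which encodes CD30, the defining surface marker of Hodgkin cells, fell by 0.98 ± 0.20 (log2, SE) with sorafenib (adjusted p = 0.0316). The other 5 detected Hodgkin markers differed by 0.02 (FUT4) to 0.84 (TRAF1) with sorafenib and none passed, so the 6 had a median of 0.14. On the linear scale the 4 detected myeloid markers summed to 2542 to 3282 with givinostat, 3240 to 3660 with sorafenib and 3123 to 3974 with the combination, against 2224 to 3402 in control cells. The 2 detected T cell markers summed to 1802 to 2577 with givinostat, 2066 to 2588 with sorafenib and 2191 to 2351 with the combination, against 1371 to 1953 in control cells. No marker of either list passed the test against control, and the part of these markers in the carrier results was not tested.

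Most of the 158 genes did not pass the test under either drug. The RNA is from whole cultures, in which fewer cells of a kind and less RNA per cell cannot be told apart. With sorafenib 5 of the 158 genes changed at a limma adjusted p under 0.05, 3 higher (SLC66A3, SLC67A1-AS and SLC25A37) and 2 lower (SLCO4A1 and SLC35B2). With the combination 11 changed, 10 higher (SLC39A13, SLC25A42, SLC9A9, SLC46A3, SLC44A2, SLC67A1, SLC25A37, SLC44A1, SLC66A3 and SLC41A3) and 1 lower (SLC5A6). With givinostat alone none of the 158 passed limma's test, although 10 were higher and 8 lower at an unadjusted p under 0.05. Each total over both directions lies near the share of all tested genes. The 5 genes called with sorafenib are 3.16% of the 158, against 3.38% of all 8079 genes, with 1.94% of all genes higher and 1.44% lower. The 11 called with the combination are 6.96% of the 158, against 6.99% of all genes. By direction, 6.33% of the 158 were higher, against 4.02% of all genes, and 0.633% were lower, against 2.97%. SLC39A13 and SLC9A9 are among the higher genes and entered the list through the combination arrays alone. With givinostat 0.0866% of all genes were called, 7 in number (0.0743% higher and 0.0124% lower). At an unadjusted p under 0.05, 11.4% of the 158 stood there, against 12.9% of all genes (7.33% higher and 5.57% lower). Median log2 changes of the 158 genes were 0.03 with givinostat, -0.01 with sorafenib and -0.00 with the combination, against medians of -0.00, 0.00 and -0.02 over all tested genes.

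The sample letters carried information for 3 of the groups and, within the combination, for letter A. Same-letter arrays of givinostat, sorafenib and control deviated together from their group means, with correlations of 0.177 to 0.408 in 9 pairs. Combination A correlated with control A, givinostat A and sorafenib A at 0.310, 0.363 and 0.321. Combination B and C gave -0.139 to 0.135 with their same-letter arrays. A fit with the letter as a block stands beside the comparisons of givinostat and sorafenib with control. It held all 12 arrays, so its letter effects were shared by the combination arrays as well. With that block 2 of the 158 genes passed with givinostat, SLC5A6 lower and SLC44A1 higher (1.27%, against 2.05% of all genes, 1.27% higher and 0.78% lower). With sorafenib 12 passed, 7 higher and 5 lower (7.59%, against 8.74% of all genes, 4.88% higher and 3.86% lower). Calls over all genes were also more numerous with the block than without it. The 12 included the 5 above together with SLC25A10, SLC25A1, SLC25A4, SLC25A43, SLC39A11, SLC67A1 and SLC25A42, of which SLC25A1, SLC25A4 and SLC39A11 are named here because of this fit, after their values were seen. With the combination arrays left out, the block fit called SLC48A1 with sorafenib and did not call SLC25A10. Scaling matters as well. When arrays were scaled to a common median in place of quantile normalization, 0 of the 158 passed with sorafenib, and with the combination 0 were higher and 1 lower. Without combination B, 5 of the 11 combination calls remained. The shares of all genes called under that scaling and without combination B are not given here. Whether carriers lost more calls than other genes was not tested.

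**Figure D1:**
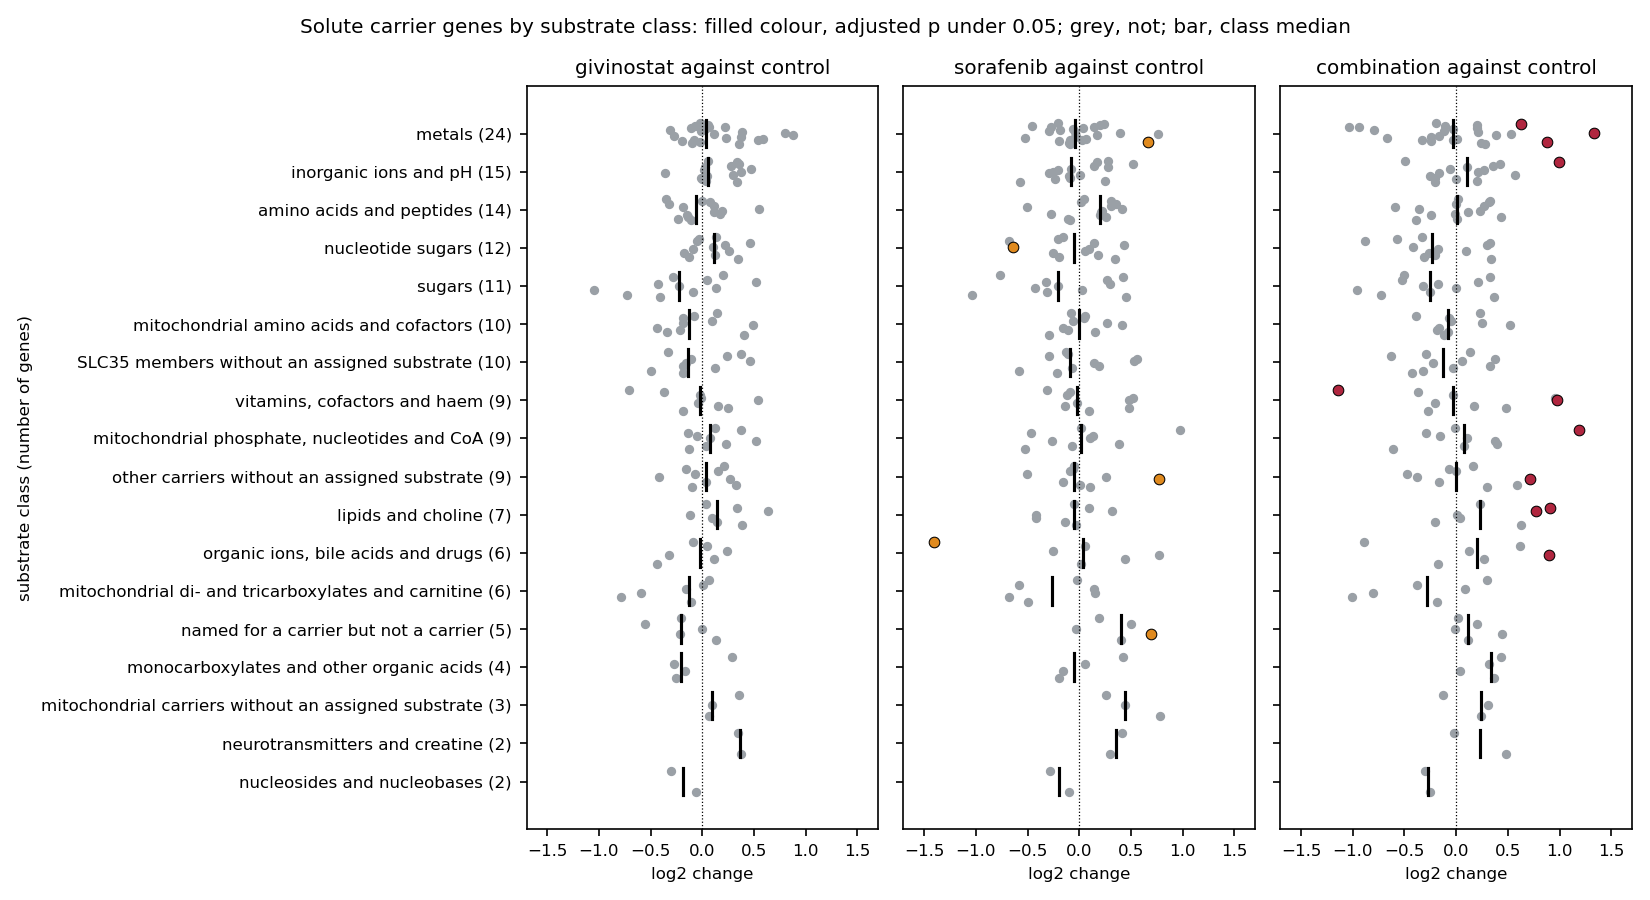
Log2 change of each of the 158 carrier genes (x axis) by substrate class (y axis, with the number of genes), for givinostat, sorafenib and the combination, each against control. Grey points missed an adjusted p of 0.05, coloured points passed it, and the black bar is the class median. The passing genes, 0 with givinostat, 5 with sorafenib and 11 with the combination, fall in several classes.

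Vitamin, cofactor and haem carriers numbered 9, of which 1 rose and 1 fell with the combination and none passed with either drug alone in the fit without the block. SLC5A6, the sodium-dependent multivitamin transporter, takes up biotin, pantothenate and lipoate at the plasma membrane. On the normalized log2 intensity scale, and in the order A, B, C used for every gene below, SLC5A6 (probe ILMN_1741054) read 11.85, 11.84 and 11.88 with givinostat, 12.03, 12.28 and 12.44 with sorafenib and 11.28, 11.46 and 11.51 with the combination, against 12.32, 12.74 and 12.62 in control cells. Of the 9 treated arrays, sorafenib C alone overlapped the controls, and the combination arrays were the lowest of all. It fell with the combination by 1.14 log2 units, with 11.42 ± 0.12 with the combination, against 12.56 ± 0.21 in control cells (SD, n = 3 each; 2.21-fold lower, SE 0.15, adjusted p = 0.00267). The combination call held in all 12 fits that each left out 1 array, with adjusted p up to 0.0145, and under all 9 other processing settings. With givinostat alone its change was -0.71 ± 0.15 (adjusted p = 0.0867, and 0.0214 with the letter block), and with sorafenib alone -0.31 ± 0.15 (adjusted p = 0.263). Set against sorafenib alone, it fell by 0.83 ± 0.15 in the combination (adjusted p = 0.0397), a call lost in each of the 12 fits that left out 1 array, at adjusted p of 0.0508 to 0.134.

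The promoter of SLC5A6 is shown because this gene has the call that held in most settings. The 250 bases before its start were taken from RefSeq (GRCh38.p14, chr2:27212269-27212518, minus strand), printed 5′ to 3′ with matches to the GC box GGGCGG or its reverse complement CCGCCC in capitals.
SLC5A6: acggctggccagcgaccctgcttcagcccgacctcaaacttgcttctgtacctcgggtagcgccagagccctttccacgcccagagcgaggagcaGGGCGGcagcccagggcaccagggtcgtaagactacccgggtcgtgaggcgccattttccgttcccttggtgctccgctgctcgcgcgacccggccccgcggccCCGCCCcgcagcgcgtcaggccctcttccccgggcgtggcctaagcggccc
It holds 2 GC boxes. Over all 27305 RefSeq promoters of this length 42.3% hold at least 1 on either strand, as do 68.9% of the 135 carrier promoters found in that table. The 27305 are not limited to genes detected in these cells, as the 135 are, so the sets are unlike. A share over the tested genes is not given here, so the difference is not read as particular to carriers. Of the 14 genes called in any comparison 12 were in it, and 6 of those 12 hold the motif.

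SLC46A3, a lysosomal membrane carrier known for releasing the breakdown products of some antibody-drug conjugates, rose with the combination. SLC46A3 (probe ILMN_1658639) read 7.43, 7.84 and 8.13 with givinostat, 7.92, 7.73 and 7.58 with sorafenib and 8.34, 7.87 and 8.50 with the combination, against 7.27, 7.24 and 7.28 in control cells. Control arrays lay close to each other, and all 9 treated arrays were above them. The change with the combination was 0.97 ± 0.20 (1.96-fold higher, adjusted p = 0.0198), while those with givinostat, 0.54 ± 0.20, and sorafenib, 0.48 ± 0.20, did not pass (adjusted p = 0.285 and 0.215). The combination call was lost without control B, control C, combination A or combination C, at adjusted p of 0.0658, 0.0605, 0.0535 and 0.0637. SLC48A1, which carries haem out of lysosomes, read 8.94, 8.31 and 8.67 with givinostat, 9.46, 8.87 and 9.19 with sorafenib and 10.43, 9.34 and 9.04 with the combination, against 8.82, 8.47 and 8.67 in control cells. Its combination arrays were all above the controls, with array A far above B and C, and its change of 0.95 ± 0.32 did not pass (adjusted p = 0.0946). With sorafenib it differed by 0.52 ± 0.32 (adjusted p = 0.397), and it passed in the fit with the letter block that also left out the combination arrays (adjusted p = 0.0334).

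Lipid and choline carriers numbered 7, and 2 of them rose with the combination, 28.6% of a small class, against 4.02% of all tested genes. In the other classes that share ran from 0.0%, as for amino acid, nucleotide sugar and sugar carriers, to 16.7% for organic ion carriers. In classes of this size 1 gene moves the share by many points. SLC44A1 and SLC44A2 are choline transporter-like proteins of the plasma membrane, and choline is the precursor of phosphatidylcholine. SLC44A1 (probe ILMN_1700695) read 13.24, 13.69 and 13.54 with givinostat, 13.12, 13.35 and 13.04 with sorafenib and 13.46, 13.74 and 13.65 with the combination, against 12.77, 12.92 and 12.86 in control cells. Every treated array was above every control array. Its change was 0.77 ± 0.15 with the combination (1.7-fold higher, adjusted p = 0.0139, and 0.0509 without combination B). With givinostat it was 0.64 ± 0.15 (adjusted p = 0.128, and 0.0255 with the letter block), and with sorafenib 0.32 ± 0.15 (adjusted p = 0.258). A second SLC44A1 probe gave 0.67 with givinostat, 0.10 with sorafenib and 0.69 with the combination, the last passing in a fit over all kept probes (adjusted p = 0.0275).

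SLC44A2 (probe ILMN_1771987) read 9.88, 10.07 and 9.60 with givinostat, 9.71, 9.54 and 9.56 with sorafenib and 10.53, 10.23 and 10.48 with the combination, against 9.98, 9.46 and 9.10 in control cells. Combination arrays were above all others, although control A lay near the givinostat arrays. The change with the combination was 0.90 ± 0.21 (1.87-fold higher, adjusted p = 0.0284), against 0.34 ± 0.21 with givinostat and 0.09 ± 0.21 with sorafenib, neither passing (adjusted p = 0.543 and 0.854). The call was lost without control B, control C, or any one of the combination arrays A, B and C, at adjusted p of 0.0919, 0.0937, 0.0722, 0.0509 and 0.0758. SLC27A1, a fatty acid transport protein, had 10.40 ± 0.17 with the combination and 9.78 ± 0.16 in control cells (SD, n = 3 each), a difference of 0.62 ± 0.19 that did not pass (adjusted p = 0.0745).

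Metal carriers were the largest class, with 24 genes, of which 1 rose with sorafenib, 3 rose with the combination and none fell in the fit without the block. Those 3 are 12.5% of the class, against 4.02% of all tested genes higher with the combination. The classes were chosen with earlier results of these data known, so a class share is a description and not a test. They include SLC39A13, which was in the list through the combination arrays alone. SLC25A37, mitoferrin of the mitochondrial inner membrane, imports iron for haem and iron-sulfur cluster synthesis. SLC25A37 (probe ILMN_1715969) read 9.51, 9.18 and 9.47 with givinostat, 10.30, 10.02 and 9.92 with sorafenib and 10.36, 10.38 and 10.13 with the combination, against 9.28, 9.40 and 9.56 in control cells. Sorafenib and combination arrays were all above the givinostat and control arrays, which overlapped each other. It rose with sorafenib by 0.66 ± 0.15 (1.59-fold higher, adjusted p = 0.0405) and with the combination by 0.88 ± 0.15 (1.84-fold higher, adjusted p = 0.00825), and differed by -0.03 ± 0.15 with givinostat (adjusted p = 0.967). The combination call held in all 12 fits that left out 1 array. The sorafenib call held in 4 of them (those lacking array A or B of givinostat or of the combination) and had adjusted p of 0.0555 to 0.12 in the others. SLC25A28, the related mitoferrin found in most tissues, is named for comparison after its values were seen. It differed by -0.10 ± 0.16 with sorafenib and 0.24 ± 0.16 with the combination (adjusted p = 0.786 and 0.392).

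SLC39A13 belongs to the ZIP family, which brings zinc into the cytosol, and acts on intracellular stores. SLC39A13 (probe ILMN_1730937) read 7.21, 6.48 and 6.84 with givinostat, 6.60, 6.56 and 6.16 with sorafenib and 7.23, 7.54 and 7.35 with the combination, against 6.43, 5.29 and 6.40 in control cells. It was detected on 3 of 3 arrays with the combination and 1 of 3 with givinostat, but on 0 of 3 with sorafenib and 0 of 3 in control cells. It therefore entered the gene list through the combination arrays alone, and those arrays were above all others. Against the detection limit of the control arrays it was at least 1.5-fold higher with the combination (log2 change of measured values 1.33 ± 0.29, adjusted p = 0.0247). The call was lost without control B, combination B or combination C, at adjusted p of 0.0554, 0.0724 and 0.0601. SLC41A3 is a member of the SLC41 family of magnesium transporters. SLC41A3 (probe ILMN_1739885) read 11.24, 10.98 and 11.31 with givinostat, 11.37, 11.22 and 11.67 with sorafenib and 11.67, 11.93 and 11.83 with the combination, against 11.32, 11.04 and 11.18 in control cells. The combination arrays overlapped the sorafenib arrays and no others. It rose with the combination by 0.63 ± 0.15 (1.55-fold higher, adjusted p = 0.0354). Its second probe gave 0.22 (adjusted p = 0.724), and its call did not survive the removal of any control array or of combination B or C, with control A, B, C and combination B, C in turn giving adjusted p of 0.0515, 0.121, 0.0957, 0.107 and 0.0864.

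Other zinc carriers pointed in both directions without passing. SLC39A8, which imports zinc and manganese, had 8.51 ± 0.15 with the combination and 9.45 ± 0.51 in control cells (SD, n = 3 each; change -0.94 ± 0.32, adjusted p = 0.0961). SLC39A9, a ZIP protein placed in the Golgi, was detected on 2 of 3 combination arrays and had 7.27 ± 0.76 with the combination and 8.30 ± 0.33 in control cells (adjusted p = 0.119). SLC39A11, another ZIP protein, had 9.85 ± 0.27 with sorafenib and 9.09 ± 0.19 in control cells (adjusted p = 0.0564, and 0.0182 with the letter block). SLC39A10, a zinc importer of the plasma membrane, was detected on all 3 givinostat arrays and on none of the other 9, and its difference from control with givinostat did not pass (adjusted p = 0.234). It is named as 1 of the last genes inside the detection rule.

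Organic ion, bile acid and drug carriers numbered 6, of which 1 fell with sorafenib and 1 rose with the combination in the fit without the block. SLCO4A1 is an organic anion transporter of the plasma membrane that takes up thyroid hormones and prostaglandins. SLCO4A1 (probe ILMN_1727200) read 9.04, 9.62 and 9.95 with givinostat, 8.42, 8.51 and 7.72 with sorafenib and 8.44, 8.98 and 8.77 with the combination, against 9.44, 9.43 and 10.01 in control cells. Every sorafenib and combination array was below every control and givinostat array. It fell with sorafenib, averaging 8.22 ± 0.43 with sorafenib, against 9.63 ± 0.33 in control cells (SD, n = 3 each; log2 change -1.41 ± 0.28, 2.65-fold lower, adjusted p = 0.0292). That call did not survive the removal of any control array or of sorafenib A or C, with control A, B, C and sorafenib A, C in turn giving adjusted p of 0.0536, 0.0642, 0.109, 0.0521 and 0.0913. With the combination the difference was -0.89 ± 0.28 (adjusted p = 0.0814) and with givinostat -0.09 ± 0.28 (adjusted p = 0.939).

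SLC67A1, which RefSeq also lists as SLC22A18, is a proposed organic cation carrier of the imprinted region on chromosome 11. SLC67A1 (probe ILMN_2382505) read 10.75, 10.15 and 10.49 with givinostat, 11.86, 11.23 and 11.58 with sorafenib and 11.78, 11.64 and 11.63 with the combination, against 10.97, 10.67 and 10.71 in control cells. All sorafenib and combination arrays were above all givinostat and control arrays. It rose with the combination by 0.90 ± 0.19 against control (1.86-fold higher, adjusted p = 0.0215) and by 1.22 ± 0.19 against givinostat (2.33-fold higher, adjusted p = 0.0137). With sorafenib alone the change was 0.77 ± 0.19 (adjusted p = 0.0527, and 0.0103 with the letter block). The call against control was lost without control B, control C or any one of the combination arrays A, B and C, at adjusted p of 0.0802, 0.0753, 0.0576, 0.053 and 0.0528. The call against givinostat was lost without givinostat B (adjusted p = 0.0669).

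SLC67A1-AS is not a carrier but the long noncoding RNA gene that overlaps SLC67A1 on the other strand. SLC67A1-AS (probe ILMN_1691048) read 8.84, 8.70 and 8.75 with givinostat, 9.80, 9.49 and 9.74 with sorafenib and 9.15, 9.60 and 9.54 with the combination, against 8.71, 9.05 and 9.19 in control cells. The sorafenib arrays were above all control and givinostat arrays, and the combination arrays overlapped the controls. It rose with sorafenib by 0.70 ± 0.17 (1.62-fold higher, adjusted p = 0.049), and differed by 0.45 ± 0.17 with the combination (adjusted p = 0.129). That call held in 1 of 12 fits that left out 1 array, the one without combination A, and had adjusted p of 0.0536 to 0.137 in the others. Which strand each probe reads was not checked here.

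The starts of these overlapping genes lie 1297 bases apart on opposite strands, and both promoters are shown since both genes had all sorafenib arrays above all control arrays. They are the 250 bases before each start from RefSeq (GRCh38.p14, SLC67A1 at chr11:2902028-2902277 on the plus strand and SLC67A1-AS at chr11:2903576-2903825 on the minus strand), 5′ to 3′, with GC boxes in capitals as above.
SLC67A1: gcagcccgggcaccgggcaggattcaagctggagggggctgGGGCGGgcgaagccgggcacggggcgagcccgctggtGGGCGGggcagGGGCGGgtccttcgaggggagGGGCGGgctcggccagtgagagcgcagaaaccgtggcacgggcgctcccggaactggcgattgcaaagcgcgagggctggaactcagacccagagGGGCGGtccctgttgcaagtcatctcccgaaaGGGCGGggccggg
SLC67A1-AS: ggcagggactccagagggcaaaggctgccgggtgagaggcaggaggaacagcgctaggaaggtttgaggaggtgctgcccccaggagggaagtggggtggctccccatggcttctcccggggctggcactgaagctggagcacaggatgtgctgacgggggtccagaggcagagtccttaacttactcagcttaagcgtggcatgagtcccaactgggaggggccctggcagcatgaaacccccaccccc
The SLC67A1 window holds 6 GC boxes and the SLC67A1-AS window 0, which says only that these letters are absent from it.

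Mitochondrial carriers of the SLC25 family, apart from the mitoferrins, fell into 4 classes: 9 genes for phosphate, nucleotides and coenzyme A (1 of them peroxisomal), 10 for amino acids and cofactors, 6 for di- and tricarboxylates and carnitine, and 3 without an assigned substrate. In the fit without the block, 1 gene of the first class rose with the combination, and in the other 3 classes none passed in any comparison with control. SLC25A42 imports coenzyme A into the mitochondrial matrix. SLC25A42 (probe ILMN_2222880) read 10.19, 9.52 and 9.84 with givinostat, 10.84, 10.12 and 10.40 with sorafenib and 11.005, 10.47 and 10.51 with the combination, against 9.86, 9.31 and 9.26 in control cells. Array A was the highest in every group, and all sorafenib and combination arrays were above every control array. It rose with the combination by 1.18 ± 0.25 (2.27-fold higher, adjusted p = 0.0213), a call lost without control B, control C or combination A at adjusted p of 0.0802, 0.0784 and 0.059. With sorafenib the change was 0.97 ± 0.25 (adjusted p = 0.0612, and 0.00362 with the letter block), and with givinostat 0.38 ± 0.25 (adjusted p = 0.578).

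Of the 6 carriers of di- and tricarboxylates and carnitine, 4 were below control and 2 above it in each of the 3 comparisons with control, with medians of -0.13 with givinostat, -0.26 with sorafenib and -0.28 with the combination. SLC25A10, the dicarboxylate carrier, had 7.57 ± 0.61 with givinostat, 7.67 ± 0.32 with sorafenib and 7.35 ± 0.28 with the combination, against 8.35 ± 0.27 in control cells (SD, n = 3 each). Its differences of -0.78 ± 0.29, -0.68 ± 0.29 and -1.005 ± 0.29 had adjusted p of 0.278, 0.222 and 0.0611, and the letter block gave 0.044 for sorafenib, though it did not pass when the combination arrays were also left out. SLC25A1, the citrate carrier, differed by -0.50 ± 0.17 with sorafenib (adjusted p = 0.129, and 0.0465 with the block). SLC25A11, the oxoglutarate carrier, was detected on 1 of 3 givinostat and 1 of 3 combination arrays, and on all sorafenib and control arrays. It differed by -0.59 ± 0.29 with givinostat, 0.15 ± 0.29 with sorafenib and -0.81 ± 0.29 with the combination (adjusted p = 0.42, 0.833 and 0.118). SLC25A21, the oxodicarboxylate carrier, differed by 0.01 ± 0.56, -0.59 ± 0.56 and -0.38 ± 0.56 in the same order (adjusted p = 0.998, 0.622 and 0.734). It was detected on 2 of 3 arrays with givinostat, 1 of 3 with sorafenib and 2 of 3 with the combination, against 3 of 3 in control cells, and entered the list through the control arrays alone.

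Carriers of adenine nucleotides and other cofactors gave mostly small differences. SLC25A4, the adenine nucleotide translocator that exchanges ADP for ATP, differed by -0.46 ± 0.13 with sorafenib (adjusted p = 0.0782, and 0.0223 with the letter block). SLC25A25, an ATP-magnesium and phosphate carrier, had 9.63 ± 0.22 with givinostat, 8.85 ± 0.09 with sorafenib and 9.49 ± 0.19 with the combination, against 9.12 ± 0.10 in control cells (SD, n = 3 each; adjusted p = 0.193, 0.347 and 0.15). It was above the controls on all givinostat and combination arrays and below them on all sorafenib arrays. SLC25A17, which carries coenzyme A and nucleotide cofactors in peroxisomes, differed by -0.61 ± 0.21 with the combination (adjusted p = 0.102). SLC25A16 and SLC25A43, mitochondrial carriers without an assigned substrate here, differed by 0.78 ± 0.25 and 0.44 ± 0.15 with sorafenib (adjusted p = 0.121 and 0.143, and for SLC25A43 0.0446 with the letter block). SLC25A46, grouped with them, differed by 0.35 ± 0.26 with givinostat (adjusted p = 0.621). Among the amino acid and cofactor carriers, those named by the size of their difference were SLC25A29 for basic amino acids, 0.52 ± 0.31 with the combination, SLC25A26 for S-adenosylmethionine, -0.43 ± 0.18 with givinostat, and SLC25A12 for aspartate and glutamate, 0.40 ± 0.21 with givinostat (adjusted p = 0.335, 0.338 and 0.456). Control cells had SLC25A29 detected on 1 of 3 arrays.

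The class of nucleotide sugar carriers of the endoplasmic reticulum and Golgi, which here includes the sulfate donor carrier SLC35B2, numbered 12. Of these 1, SLC35B2 itself, fell with sorafenib, and none passed with givinostat or the combination. SLC35B2 brings the sulfate donor PAPS into the Golgi for sulfation of glycans and proteins. SLC35B2 (probe ILMN_1789001) read 12.06, 12.23 and 12.52 with givinostat, 11.35, 11.64 and 11.58 with sorafenib and 11.54, 11.86 and 11.82 with the combination, against 12.03, 12.30 and 12.15 in control cells. The sorafenib and combination arrays were below all control and givinostat arrays. It fell with sorafenib, averaging 11.52 ± 0.15 with sorafenib, against 12.16 ± 0.13 in control cells (SD, n = 3 each; log2 change -0.64 ± 0.16, 1.56-fold lower, adjusted p = 0.0498), and differed by -0.42 ± 0.16 with the combination (adjusted p = 0.128). The sorafenib call lay at the threshold and held in 1 of the 12 fits that left out 1 array, the one without combination A, with adjusted p of 0.051 to 0.163 in the others. SLC35C1, the GDP-fucose carrier, and SLC35D1, a carrier of UDP-sugars, differed by -0.88 ± 0.40 and -0.57 ± 0.38 with the combination (adjusted p = 0.21 and 0.398), each undetected on 1 combination array. The 10 SLC35 genes without an assigned substrate held no call. Among them were the differences of SLC35G1 with the combination, -0.63 ± 0.46, SLC35E2A with sorafenib, -0.58 ± 0.24, and SLC35F6 with sorafenib, 0.56 ± 0.21 (adjusted p = 0.446, 0.219 and 0.172). SLC35E2A was undetected on all sorafenib arrays, where it was at least 1.27-fold lower than in control cells by the detection limit without passing, and it entered the list through the control arrays alone. It has a near-identical copy, SLC35E2B, so its probe may read both.

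Inorganic ion and pH carriers numbered 15, of which 1 rose with the combination and none passed otherwise against control. SLC9A9 is the sodium-proton exchanger of endosomes. SLC9A9 (probe ILMN_1758315) read 6.71, 6.92 and 7.15 with givinostat, 6.57, 7.19 and 6.53 with sorafenib and 7.17, 8.12 and 7.46 with the combination, against 6.40, 6.50 and 6.87 in control cells. It was detected on 2 of 3 arrays with givinostat, 1 of 3 with sorafenib and 3 of 3 with the combination, but on 0 of 3 in control cells, so it too entered the list through the combination arrays alone. Those arrays were above all givinostat and control arrays, and sorafenib B overlapped them. Against the detection limit of the control arrays it was at least 1.73-fold higher with the combination (log2 change of measured values 0.99 ± 0.26, adjusted p = 0.0451). The call held in 2 of the 12 fits that left out 1 array, those without sorafenib B or combination A, and had adjusted p of 0.0528 to 0.126 in the others, with 0.123 without combination B, its brightest array. SLC12A2, the sodium-potassium-chloride cotransporter, had 7.29 ± 0.46 with sorafenib and 7.87 ± 0.60 in control cells (SD, n = 3 each; adjusted p = 0.406), and SLC24A4, a potassium-dependent sodium-calcium exchanger, differed by 0.56 ± 0.55 with the combination (adjusted p = 0.57). SLC24A4 was fully detected with the combination and in no other group, and entered the list through it alone.

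Sugar carriers numbered 11 once the glucose carriers SLC2A1 and SLC2A3 were left out, and none passed in any comparison with control. SLC2A9, a urate carrier of the glucose transporter family, had 6.30 ± 0.66 with givinostat, 7.37 ± 0.33 with sorafenib and 6.39 ± 0.84 with the combination, against 7.35 ± 0.45 in control cells (SD, n = 3 each). It was detected on 1 of 3 arrays with givinostat, 3 of 3 with sorafenib and 1 of 3 with the combination, against 3 of 3 in control cells, and its differences had adjusted p of 0.332, 0.979 and 0.202. SLC2A14, a near-identical copy of SLC2A3 whose probe may also read it, was detected on 1 of 3 arrays with givinostat, 0 of 3 with sorafenib and 1 of 3 with the combination, against 3 of 3 in control cells. It was kept through the control arrays alone, and against the detection limit of the sorafenib arrays it was at least 1.26-fold lower with sorafenib, which did not pass (log2 difference of measured values -1.04 ± 0.33, adjusted p = 0.116). SLC5A3, the myo-inositol cotransporter, differed by -0.77 ± 0.33 with sorafenib (adjusted p = 0.233).

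Amino acid and peptide carriers numbered 14, without the cystine, glutamate and large neutral amino acid carriers left out by name, and none passed against control. SLC38A2, a sodium-coupled neutral amino acid carrier, had 8.52 ± 0.83 with givinostat, 8.38 ± 0.48 with sorafenib and 7.62 ± 1.00 with the combination, against 7.97 ± 1.08 in control cells (SD, n = 3 each; adjusted p = 0.774, 0.774 and 0.776). SLC38A6, of the same family, differed by -0.59 ± 0.40 with the combination (adjusted p = 0.396), and entered the list through the control arrays alone. SLC1A5, the main glutamine importer of many cells, had 11.75 ± 0.07 with the combination and 11.32 ± 0.39 in control cells, a difference of 0.43 ± 0.23 (adjusted p = 0.285), and its control array A overlapped the combination arrays.

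The remaining small classes held no call against control. Of 4 monocarboxylate and organic acid carriers, SLC16A9, SLC13A3 and SLC16A14 differed by 0.44 ± 0.28, 0.36 ± 0.31 and 0.32 ± 0.37 with the combination (adjusted p = 0.367, 0.514 and 0.648). The nucleoside carriers SLC29A2 of the plasma membrane and SLC29A3 of lysosomes differed by -0.26 ± 0.15 and -0.30 ± 0.28 with the combination (adjusted p = 0.337 and 0.555). The GABA carrier SLC6A13 differed by 0.35 ± 0.33 with givinostat, 0.41 ± 0.33 with sorafenib and -0.02 ± 0.33 with the combination (adjusted p = 0.725, 0.54 and 0.976). The vesicular polyamine carrier SLC18B1 differed by 0.37 ± 0.23, 0.30 ± 0.23 and 0.48 ± 0.23 in the same order (adjusted p = 0.551, 0.53 and 0.238). SLCO3A1, a further organic anion transporter, differed with the combination by 0.61 ± 0.24 on its brightest probe (adjusted p = 0.15) and by -0.01 on its second probe.

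Carriers without an assigned substrate, outside the SLC25 and SLC35 families, numbered 9, and 1 of them rose with sorafenib and with the combination. SLC66A3 is a multi-pass membrane protein of the PQ-loop family, whose better known members export amino acids from lysosomes. SLC66A3 (probe ILMN_1814213) read 10.11, 10.23 and 10.25 with givinostat, 10.53, 10.84 and 10.73 with sorafenib and 10.58, 10.70 and 10.62 with the combination, against 10.01, 9.77 and 10.00 in control cells. Sorafenib and combination arrays overlapped each other and were above all givinostat and control arrays. It rose with sorafenib by 0.78 ± 0.12 (1.71-fold higher, adjusted p = 0.00925) and with the combination by 0.71 ± 0.12 (1.64-fold higher, adjusted p = 0.00943), while givinostat gave 0.27 ± 0.12 (adjusted p = 0.389). Both calls held in all 12 fits that left out 1 array, with adjusted p up to 0.0465, and both were lost when arrays were scaled to a common median (adjusted p = 0.493 and 0.565). Relative to the shift of all genes under that scaling, the changes were 0.78 with sorafenib and 0.68 with the combination, about as large. In the same class SLC71A1 and SLC60A1, proteins of the major facilitator superfamily, differed by -0.51 ± 0.18 with sorafenib and 0.59 ± 0.38 with the combination (adjusted p = 0.139 and 0.381), and SLC60A1 entered the list through the combination arrays alone.

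The promoter of SLC66A3 is shown as that of the carrier called with sorafenib and with the combination in all 12 fits that left out 1 array. It comprises the 250 bases before its start in RefSeq (GRCh38.p14, chr2:11155217-11155466, plus strand), 5′ to 3′, with GC boxes in capitals as above.
SLC66A3: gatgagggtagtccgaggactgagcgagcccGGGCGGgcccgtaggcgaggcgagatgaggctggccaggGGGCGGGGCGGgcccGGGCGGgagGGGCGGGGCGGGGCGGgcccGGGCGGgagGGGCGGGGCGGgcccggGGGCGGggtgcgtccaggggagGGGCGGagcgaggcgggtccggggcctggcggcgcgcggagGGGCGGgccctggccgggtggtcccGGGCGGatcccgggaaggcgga
It holds 14 GC boxes, some of which share a base, where the SLC5A6 window holds 2. Other short motifs stood at similar shares in the 135 carrier promoters and in all 27305: CCAAT at 35.6% against 33.04%, the E-box CACGTG at 7.41% against 6.49%, ACGTG at 17.8% against 18.7% and TGATGNAA at 2.96% against 3.19%, each on either strand. ACGTG lies inside every E-box, so those 2 shares are nested. As above, the 27305 are not limited to detected genes. A match describes letters and not a bound site.

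**Figure D2:**
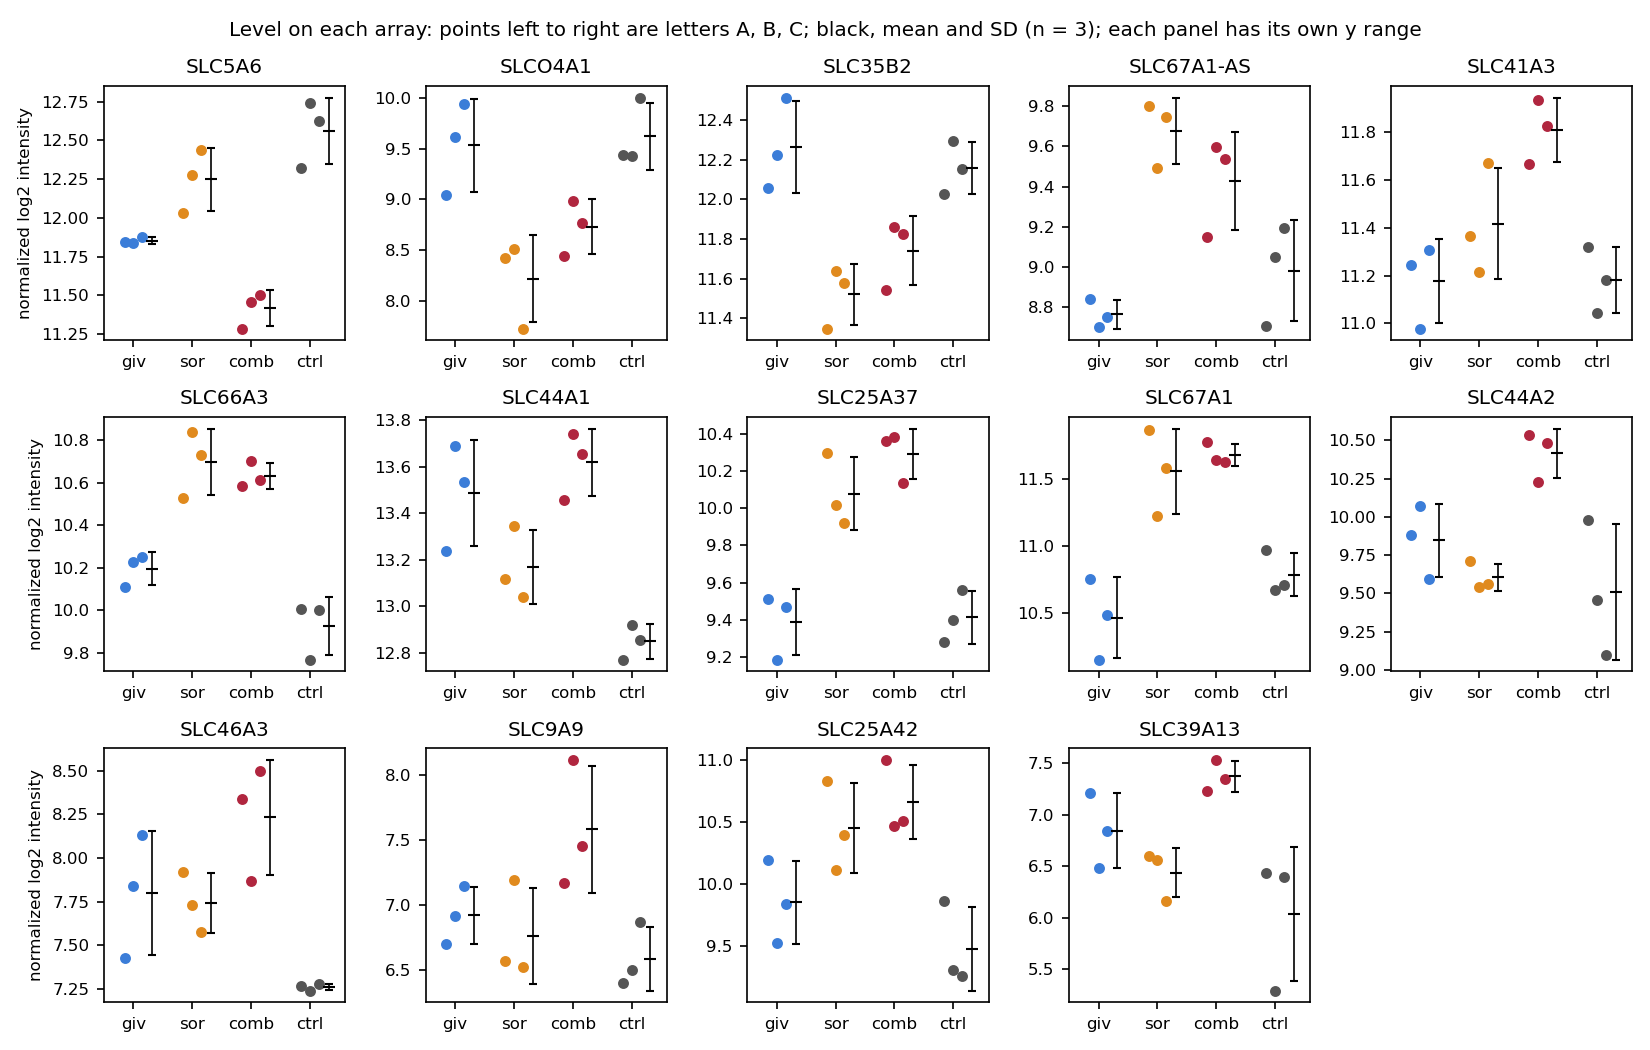
Normalized log2 intensity (y axis, its range set per panel) of the 14 genes called in any comparison, on each givinostat (giv), sorafenib (sor), combination (comb) and control (ctrl) array, with points from left to right for letters A, B and C and the mean with SD (n = 3) in black. SLC5A6 is lowest on the 3 combination arrays, and SLC25A37, SLC67A1 and SLC66A3 are higher on all sorafenib and combination arrays than on any givinostat or control array.

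5 of the 158 symbols name genes that are not carriers, and 1 of them, SLC67A1-AS, passed. SLC7A6OS lies on the strand opposite SLC7A6, had 7.58 ± 0.23 with givinostat, 8.64 ± 0.03 with sorafenib and 8.33 ± 0.32 with the combination, against 8.13 ± 0.26 in control cells (SD, n = 3 each), and did not pass (adjusted p = 0.238, 0.174 and 0.565). Its givinostat arrays were below and its sorafenib arrays above all controls. SLC2A4RG, a transcription factor gene named for the glucose transporter it regulates, differed by 0.40 ± 0.27 with sorafenib (adjusted p = 0.455). SLC7A5P2 is a pseudogene copy of SLC7A5, so its probe may read that gene, and SLC9A3-OT1 is a noncoding transcript overlapping SLC9A3.

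By place in the cell, the calls of the fit without the block were spread as well. The plasma membrane held 50 genes, of which 1 fell with sorafenib (SLCO4A1), and with the combination 2 rose (SLC44A1 and SLC44A2) and 1 fell (SLC5A6). Mitochondria held 30, of which 1 rose with sorafenib (SLC25A37) and 2 with the combination (SLC25A37 and SLC25A42). The endoplasmic reticulum and Golgi held 23, of which 1 fell with sorafenib (SLC35B2) and 1 rose with the combination (SLC39A13, in the list through the combination arrays alone). Lysosomes and endosomes held 10, of which 2 rose with the combination (SLC46A3 and SLC9A9), 20.0% of a small group, against 4.02% of all tested genes, and SLC9A9 was in the list through the combination arrays alone. The same share was 4.0% for the plasma membrane, 6.67% for mitochondria and 4.35% for the endoplasmic reticulum and Golgi. Differences between these shares were not tested. Peroxisomes and vesicles held 1 gene each and neither passed. Of the 38 genes with no place assigned, 1 rose with sorafenib (SLC66A3) and 3 with the combination (SLC66A3, SLC67A1 and SLC41A3). Median log2 changes with the combination were -0.01 for the plasma membrane, 0.03 for mitochondria, -0.18 for the endoplasmic reticulum and Golgi and 0.14 for lysosomes and endosomes, against -0.02 over all tested genes.

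The comparisons of the combination with each single drug named 3 genes. Against givinostat, 2 carriers rose (SLC67A1 and SLC25A37) and none fell, 1.27% of the 158, against 1.68% of all genes called, 0.953% higher and 0.73% lower. SLC25A37 differed by 0.90 ± 0.15 (1.87-fold higher, adjusted p = 0.0167), a call lost without givinostat B, combination A or combination B at adjusted p of 0.0807, 0.0537 and 0.054. Against sorafenib, 1 carrier fell (SLC5A6) and none rose, 0.633% of the 158, against 0.359% of all genes called, with 0.186% higher and 0.173% lower. In the interaction, the combination minus both single drugs plus control, no carrier and no other gene passed limma's test, 0.0% of those tested. At an unadjusted p under 0.05 it had 2 carriers higher and 3 lower, 3.16% of them, against 5.85% of all genes (2.24% higher and 3.61% lower). For SLC5A6 the interaction was -0.12 ± 0.21 and for SLC44A1 -0.19 ± 0.21 (adjusted p = 0.966 and 0.939), so a departure from the sum of the single-drug changes was not detected for either. These comparisons share the combination arrays, and those with control share the control arrays.

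**Figure D3:**
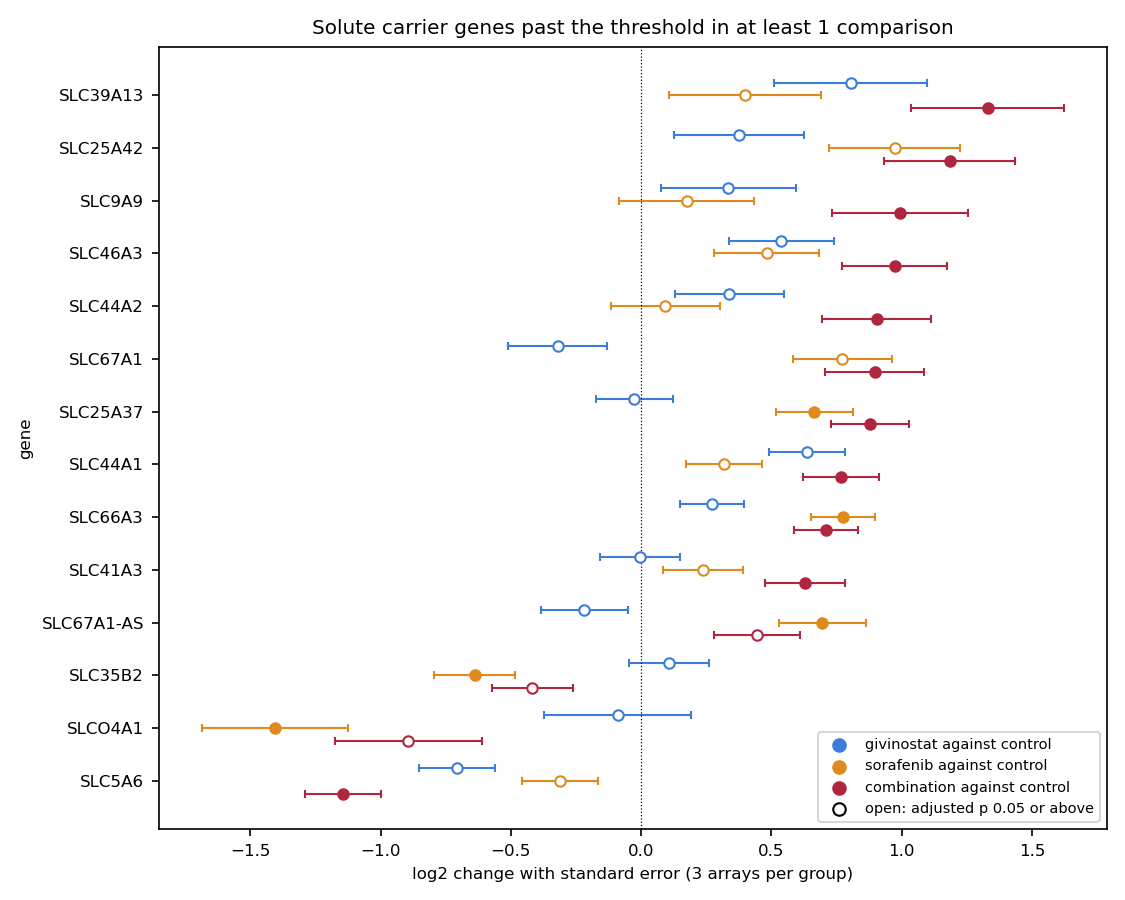
Log2 change against control with its SE (x axis, 3 arrays per group) of the 14 genes called in any comparison (y axis), for givinostat, sorafenib and the combination, with filled points at an adjusted p under 0.05. SLC39A13 and SLC9A9 were undetected on all control arrays, so their plotted values are changes of measured intensities and not bounds. SLC5A6 has the lowest combination value, at -1.14, and SLC39A13 the highest, at 1.33.

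Detection itself differed between groups. Of the 158 genes 120 were detected on all 3 arrays of all 4 groups, 16 in 3 groups, 10 in 2 groups and 12 in 1 group. Of those last 12, 2 were fully detected in givinostat cells alone, 1 in sorafenib cells, 5 in combination cells and 4 in control cells. Full detection was lacking for 13 genes with givinostat, 16 with sorafenib and 27 with the combination, against 16 in control cells, and the combination group holds the array with the fewest detected probes. Matching counts over all tested genes are not given here, so these counts are not read as particular to carriers. Among the 120 genes detected throughout, 3 rose and 2 fell with sorafenib and 8 rose and 1 fell with the combination, so SLC9A9 and SLC39A13 were the calls outside them.

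**Figure D4:**
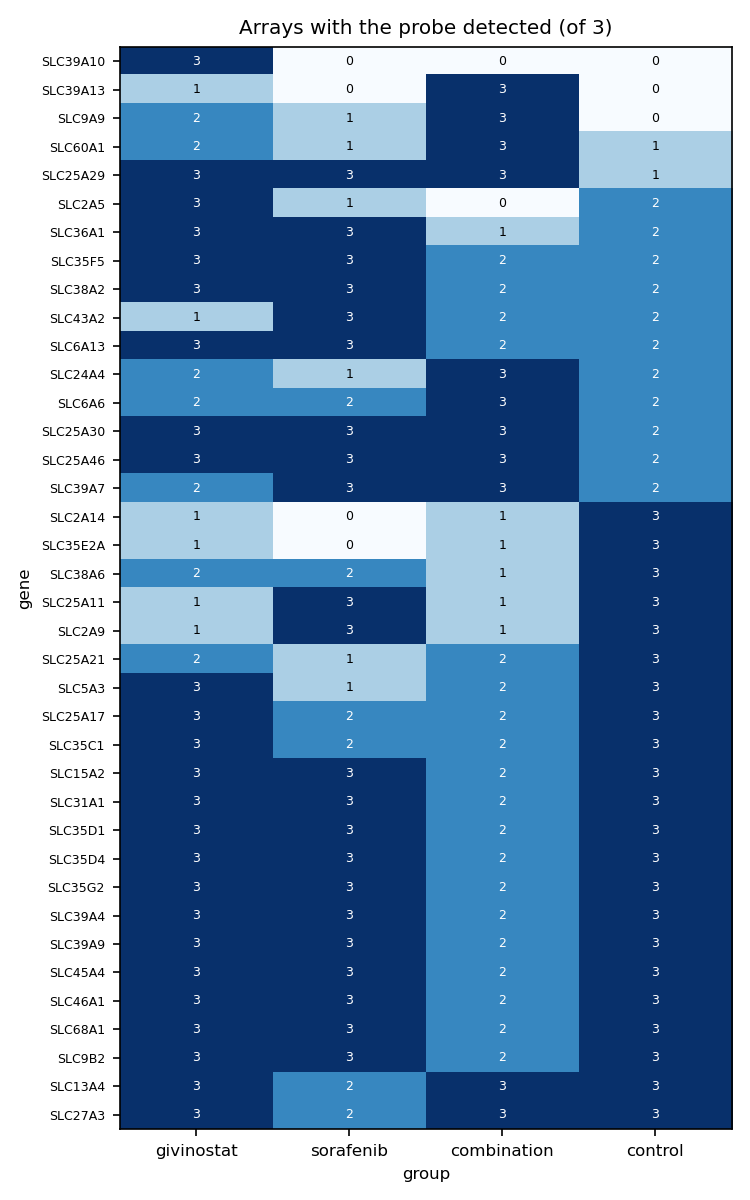
Number of arrays (of 3) on which the tested probe was detected, for the 38 genes (y axis) not detected on every array of all 4 groups, by treatment group (x axis). Darker cells are more arrays, and several rows from SLC15A2 downward are complete in every group but the combination.

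Most carriers rest on 1 probe. 25 of the 158 genes had more than 1 kept probe, and the 33 further probes had the sign of the tested probe in 23 cases with givinostat and in 21 with sorafenib and with the combination. Transport genes outside the SLC symbols gave no call against control. Of 35 carriers with other names 17 were tested, with median log2 changes of -0.00 with givinostat, 0.02 with sorafenib and -0.10 with the combination. Of 6 partner proteins of carriers 3 were tested, and of 9 subunits of the sodium-potassium pump, which maintains the sodium gradient that many carriers draw on, 3 were tested.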

How the data were processed

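The deposited bead array table holds the authors' average bead intensity per probe on a linear scale with no normalization, and a detection fraction that rises with intensity and was read as 1 minus the detection p-value. Software was BeadStudio, per the submitters' processing notes (version not given in the sources used here). Per the labels' protocols, RNA was extracted with Trizol and RNeasy with DNase and hybridised as biotinylated cRNA. The series matrix, used as an alternative, holds the authors' quantile normalized intensity.

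Background correction and quantile normalization used neqc of limma 3.58.1 under R 4.3.3 (offset 16), which took the deposited intensity to log2 values. No control probe values were used, and the background was inferred from the detection p-values. Probes were kept where detected on all 3 arrays of at least 1 of 4 groups (11801 of 48803, 10052 of them with 1 symbol). On the platform 28098 probes had 1 symbol, 13 several and 20692 none. All 158 Entrez IDs matched RefSeq. The brightest kept probe stood for a gene, giving 8079 genes. One limma model over 12 arrays (8 residual degrees of freedom) gave 6 comparisons, with Benjamini-Hochberg adjustment over 8079 genes and a threshold of 0.05. The number of arrays limits the precision. The fitting steps were tested on simulated data. A probe undetected on all arrays of a group has a bound there, taken per array as the higher of the lowest detected signal and its own.

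The genes, substrate classes and lists were chosen with earlier results of these data known. Named genes are those called in any comparison, the 3 per class with the largest difference from control, genes whose probes disagree in sign with 1 past the threshold, and genes of the other lists that passed. The letters were read as pairing givinostat, sorafenib and control, from the 9 correlations of 0.177 to 0.408 and not from the labels. They were not read as pairing the combination (-0.139 to 0.363). The block fit nevertheless covered all 12 arrays, and a further fit with the block left the combination arrays out.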

Additional observations from a re-analysis of the deposited data

How the results depend on the processing

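Counts of the 158 genes called moved with the settings, while no called gene changed sign. The matching shares of all genes are not given for these settings, so the moves are not read as particular to carriers. Listing the combination first (set against control, givinostat and then sorafenib), then sorafenib and givinostat (each set against control), the counts were 11, 2, 1, 5 and 0. They were 1, 1, 0, 0 and 0 with arrays scaled to a common median. With the background taken from the intensities alone, without the detection p-values, they were 10, 3, 1, 8 and 0. Cyclic loess gave 11, 2, 1, 4 and 0. Detection at 0.01 on all 12 arrays gave 9, 7, 1, 9 and 0, and no detection filter gave 4, 1, 0, 1 and 0. The mean of a gene's kept probes gave 10, 2, 1, 3 and 0, and no background correction and the authors' series matrix each gave 13, 5, 2, 9 and 2. With the sample letter as a replicate block the counts were 21, 13, 2, 12 and 2, and with the block but without the combination arrays 12 for sorafenib and 2 for givinostat. The first of these fits applies the letters to the combination arrays too, although the letters were not read as pairing the combination. The interaction gave 0 under each. Median scaling moved the median of all genes by -0.29 with the combination against control, -0.39 against givinostat, -0.32 against sorafenib and -0.42 in the interaction. With sorafenib against control the shift was 0.03. Relative to the shift of each comparison, the 11, 2 and 1 combination calls and the 5 sorafenib calls kept their sign. Leaving out 1 array at a time gave 4 to 12 calls for the combination against control, 0 to 2 against givinostat, 0 against sorafenib, 1 to 6 for sorafenib and 0 for givinostat and the interaction. Without combination A, B or C the first was 8, 5 or 5, and without control A, B or C 9, 4 or 5. For sorafenib 1 call was left when any control array, sorafenib A or sorafenib C was removed, 2 without givinostat C or combination C and 3 without givinostat A, givinostat B, sorafenib B or combination B. The cause of these moves was not tested, beyond the fewer arrays. Over 54 named genes, 6798 repeated values held 62 calls gained, 126 lost and 277 sign changes with neither value past the threshold. The file headers name no slides, so slide as a block was not run. Dim probes near background limit what was detectable.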
